A study of Mus musculus with 12 samples.

Results

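The genes of the MHC class II pathway were followed in livers of C57BL/6 mice. The set was given as a list of 8 symbols: H2-Aa, H2-Ab1 and H2-Eb1 (chains of the class II molecules), Cd74 (the invariant chain), H2-DMa, H2-DMb1 and H2-DMb2 (chains of the peptide exchange factor H2-DM) and Ciita (the class II transactivator). All 8 were found among the 55471 gene IDs of the count table, and all 8 passed the filter on low counts, which left 13866 genes.

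The study title concerns the role of the DNA methyltransferase DNMT1 in metabolic dysfunction-associated steatotic liver disease (MASLD), and the samples were whole liver RNA-seq libraries in 4 groups of 3. One group received a MASLD diet alone, another the MASLD diet with 0.1x Aza-TdC, another the MASLD diet with 1x Aza-TdC, and the last a standard diet (SD). Aza-TdC is a deoxycytidine analogue that depletes DNMT1. The labels give the dose in relative terms alone, and they do not state the composition of the diets, the ages or sexes of the mice, the duration, or whether the untreated groups received a vehicle. Groups are named MASLD, 0.1x, 1x and SD below, and samples keep the numbers of their titles.

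MHC class II molecules carry peptides from engulfed material to the cell surface, where CD4+ T cells read them. In the endoplasmic reticulum the α and β chains assemble with the invariant chain, which blocks the groove and directs the complex to endosomes. There, proteases including cathepsin S trim the invariant chain to a fragment called CLIP, and H2-DM exchanges CLIP for peptide. In liver, class II molecules are borne mainly by dendritic cells, B cells and macrophages, and much less by hepatocytes. Ciita binds no DNA itself. It is recruited by RFX, CREB and NF-Y proteins sitting on a conserved run of boxes upstream of class II genes, and interferon gamma induces it, in part through Irf1.

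The promoters below are shown because these boxes are the sequence that class II genes are known to share. Whether the boxes bear on the levels in these samples was not tested. They are 300 bases each, from the RefSeq promoter table for GRCm38.p6, read 5′ to 3′ on the strand of the gene. Capitals run from the AAC of the X box, the element RFX binds, to the end of ATTGG, the reverse of the CCAAT element that NF-Y binds.
H2-Aa promoter, chr17:34287774-34288073, minus strand: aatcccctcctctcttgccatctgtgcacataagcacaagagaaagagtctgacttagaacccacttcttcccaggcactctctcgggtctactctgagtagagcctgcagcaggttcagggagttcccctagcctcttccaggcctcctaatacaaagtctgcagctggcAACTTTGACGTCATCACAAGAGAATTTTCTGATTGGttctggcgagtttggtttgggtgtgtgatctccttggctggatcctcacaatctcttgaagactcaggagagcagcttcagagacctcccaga
H2-Eb1 promoter, chr17:34305617-34305916, plus strand: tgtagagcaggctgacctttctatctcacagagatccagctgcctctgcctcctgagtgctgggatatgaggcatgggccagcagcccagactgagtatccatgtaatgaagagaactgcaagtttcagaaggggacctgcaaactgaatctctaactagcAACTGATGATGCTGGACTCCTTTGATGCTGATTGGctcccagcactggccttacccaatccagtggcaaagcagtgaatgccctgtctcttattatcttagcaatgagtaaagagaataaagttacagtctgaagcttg
H2-DMb1 promoter, chr17:34152941-34153240, plus strand: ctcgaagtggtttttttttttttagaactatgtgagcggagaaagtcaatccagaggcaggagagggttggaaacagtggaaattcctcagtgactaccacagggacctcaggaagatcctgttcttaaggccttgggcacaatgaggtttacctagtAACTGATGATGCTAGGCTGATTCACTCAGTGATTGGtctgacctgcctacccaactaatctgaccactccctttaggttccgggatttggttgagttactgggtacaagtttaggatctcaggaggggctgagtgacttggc
H2-DMb2 promoter, chr17:34144999-34145298, plus strand: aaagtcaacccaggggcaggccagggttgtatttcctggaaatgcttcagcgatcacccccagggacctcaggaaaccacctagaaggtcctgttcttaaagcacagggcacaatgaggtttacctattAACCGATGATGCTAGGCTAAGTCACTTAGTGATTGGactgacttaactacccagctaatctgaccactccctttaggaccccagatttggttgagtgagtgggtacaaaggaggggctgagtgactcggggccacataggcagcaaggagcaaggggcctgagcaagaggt
The gap between AAC and ATTGG was 28 bases in the promoters of H2-Aa, H2-DMb1 and H2-DMb2 and 27 bases in that of H2-Eb1. ATTGG ended 43, 54, 56 and 85 bases before the annotated start in H2-Aa, H2-Eb1, H2-DMb1 and H2-DMb2. The spacing was read off these 4 promoters, so their match is not a finding. Searched on both strands of all 32851 promoters of the table, AAC with 27 or 28 bases before ATTGG was present in 427 (1.30%), and ATTGG alone in 12289 (37.4%). The spaced pair was also present in the promoters of H2-Oa and H2-Eb2. The pair was in neither of the 2 annotated promoters of H2-DMa, nor in that of H2-Ob. Sequence of H2-DMa outside those 2 windows was not searched. The table held promoters for 5 of the 8 genes, and H2-Ab1, Cd74 and Ciita had no entry.

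Libraries held 30213048 to 41852606 counts. In the annotation used (GRCm38, the same assembly as mm10) the class II genes lie on chromosome 17 in the order H2-DMa (34119541 to 34139101), H2-DMb2 (34143307 to 34151555), H2-DMb1 (34153072 to 34160230), H2-Ab1 (34257689 to 34269419), H2-Aa (34282744 to 34287823, minus strand) and H2-Eb1 (34305867 to 34316674). Ciita lies on chromosome 16 (10480059 to 10528418) and Cd74 on chromosome 18. Liver identity was clear in all 12 libraries, with hepatocyte marker genes at a summed 76884 to 158581 CPM (library-size-normalised counts, with TMM scaling). The sample SD 5 stood apart in B cell RNA: Ighm, the IgM heavy chain, had 258 CPM there, against 4.77 to 18.4 CPM in the other 11 samples. The calls of class II genes against SD, and their fold changes with the diet, are therefore also given without it. Other results that rest on SD include it.

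Per kilobase of the principal transcript, Cd74 was the most abundant class II gene in every group, at 62.7 CPM per kb in MASLD, 57.0 in 0.1x, 25.9 in 1x and 48.5 in SD (means, n = 3). H2-Aa followed at 40.1, 35.6, 13.1 and 33.3 CPM per kb in MASLD, 0.1x, 1x and SD. H2-Ab1 came next at 33.1, 27.4, 11.6 and 27.4 CPM per kb in the same order of groups. The β chain H2-Eb1 ranged over group means of 7.91 to 21.9 CPM per kb, H2-DMa over 1.55 to 2.86, H2-DMb1 over 1.49 to 3.01, and H2-DMb2 over 0.226 to 0.724. Ciita was the scarcest, at 0.0672 CPM per kb in 1x and 0.182 in MASLD, and its counts ran from 10 to 51 per library. Within each group the ranges of mean ± SD overlapped between neighbours in this order for Cd74 and H2-Aa, H2-Aa and H2-Ab1, H2-Ab1 and H2-Eb1, and H2-DMa and H2-DMb1. The order of the 3 chains depended on the length used: per kilobase of all annotated exons it was reversed in every group, with 18.8 for H2-Eb1, 15.6 for H2-Ab1 and 11.9 for H2-Aa in MASLD, while Cd74 stayed highest and Ciita lowest.

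**Figure D1:**
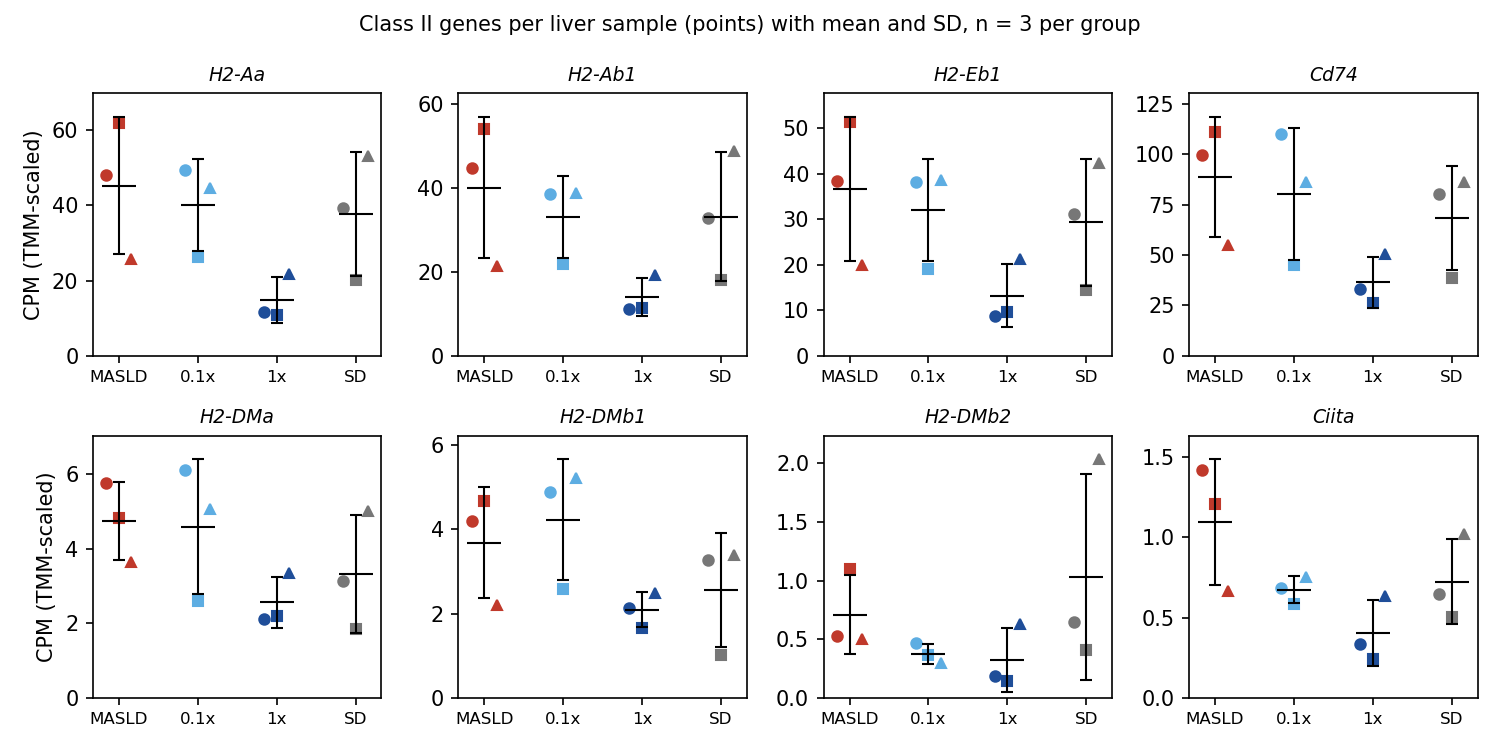
TMM-scaled CPM of the 8 class II genes in each liver sample (points), with the mean and SD as black bars (n = 3), for the groups MASLD, 0.1x, 1x and SD. For H2-Aa the 3 samples of 1x lay at 10.8 to 21.9 CPM and those of MASLD at 25.8 to 61.8 CPM.

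The clearest difference was between 1x and MASLD. In 1x livers all 8 class II genes had lower fitted levels than in MASLD livers, with a median log2 fold change of −1.36, against −0.00 over all genes tested. H2-Aa and H2-Ab1, which form the I-A molecule, fell past the threshold, and the other 6 did not. That is 2 of 8, set beside 1.62% of all genes tested that fell and 3.11% that changed in either direction in this comparison. The fold changes of the 8 genes ranked between the 1.02 and 5.70 percentiles of all genes tested. In whole liver, fewer cells of a type and less RNA per cell cannot be told apart.

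H2-Aa, the I-A α chain, had 11.7, 10.8 and 21.9 CPM in the 3 samples of 1x, against 48.1, 61.8 and 25.8 CPM in MASLD. Every 1x sample was below every MASLD sample, and the sample nearest to 1x was MASLD 5. Its log2 fold change was −1.61 ± 0.38 (SE; 95% interval −2.41 to −0.81; edgeR quasi-likelihood test, Benjamini-Hochberg adjusted p = 0.0332). H2-Ab1, the I-A β chain, had 11.3, 11.5 and 19.4 CPM in 1x, against 44.8, 54.0 and 21.4 CPM in MASLD. The groups again did not overlap, with 1x sample 5 just under MASLD 5. H2-Ab1 fell by 1.51 ± 0.37 on the log2 scale (SE; 95% interval −2.30 to −0.72; adjusted p = 0.0389, edgeR).

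Both calls rested on most of the samples. Without MASLD 3 the adjusted p was 0.117 for H2-Aa and 0.149 for H2-Ab1, and without MASLD 4 it was 0.176 and 0.208 (edgeR). Without 1x sample 2 it was 0.130 for H2-Aa and 0.150 for H2-Ab1, and without 1x sample 4 it was 0.129 and 0.149. Over these 4 omissions the log2 fold change stayed between −1.56 and −1.31 for H2-Aa and between −1.42 and −1.23 for H2-Ab1. Without MASLD 5, the sample with the lowest class II levels of its group, 4 of the 8 genes fell, and H2-Aa was at −1.89 (adjusted p = 0.0167, edgeR). No omission of a sample gave more than 396 genes called in all in this comparison.

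The rest of the pathway had lower means in 1x than in MASLD without passing the test. Cd74 had 33.0, 26.0 and 50.4 CPM in 1x, against 99.5, 111 and 54.8 CPM in MASLD, with no overlap and a log2 fold change of −1.28 ± 0.36 (adjusted p = 0.0675, edgeR). H2-Eb1, the I-E β chain, had 8.85, 9.55 and 21.2 CPM in 1x, against 38.4, 51.4 and 20.1 CPM in MASLD. Here 1x sample 5 lay above MASLD 5, and the log2 fold change was −1.48 ± 0.43 (adjusted p = 0.0783, edgeR). H2-Ea-ps, the pseudogene that stands at the place of the I-E α chain gene in this strain, was listed at 0 in all 12 libraries. Ciita had 0.336, 0.240 and 0.634 CPM in 1x, against 1.42, 1.21 and 0.662 CPM in MASLD, which did not overlap. Its log2 fold change was −1.45 ± 0.43 (adjusted p = 0.0834, edgeR). The span of Ciita, introns included, overlaps that of Dexi on the opposite strand over 25888 bases. How much of this overlap lies in exons was not measured. The strand setting of the counting is not given in the sources used here, so part of the Ciita counts could be from Dexi.

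Differences were smaller for the H2-DM genes. H2-DMa, the α chain of the exchange factor, had 2.12, 2.21 and 3.36 CPM in 1x, against 5.75, 4.82 and 3.66 CPM in MASLD. The groups did not overlap, and the log2 fold change was −0.89 ± 0.35 (adjusted p = 0.196, edgeR). The span of H2-DMa, introns included, overlaps that of Brd2 on the opposite strand over 3094 bases. H2-DMb1, one of a pair of β chain genes, had 2.14, 1.66 and 2.48 CPM in 1x, against 4.20, 4.67 and 2.20 CPM in MASLD, with an overlap. It differed by −0.82 ± 0.39 (adjusted p = 0.307, edgeR). Its paralog H2-DMb2 had 0.189, 0.144 and 0.634 CPM in 1x, against 0.528, 1.10 and 0.503 CPM in MASLD, also with an overlap, and a log2 fold change of −1.17 ± 0.64 (adjusted p = 0.380, edgeR). The main transcripts of H2-DMb1 and H2-DMb2 are 94.2% identical over 1246 aligned bases, with a longest shared run of 221 bases, so the split of reads between the 2 genes is uncertain.

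**Figure D2:**
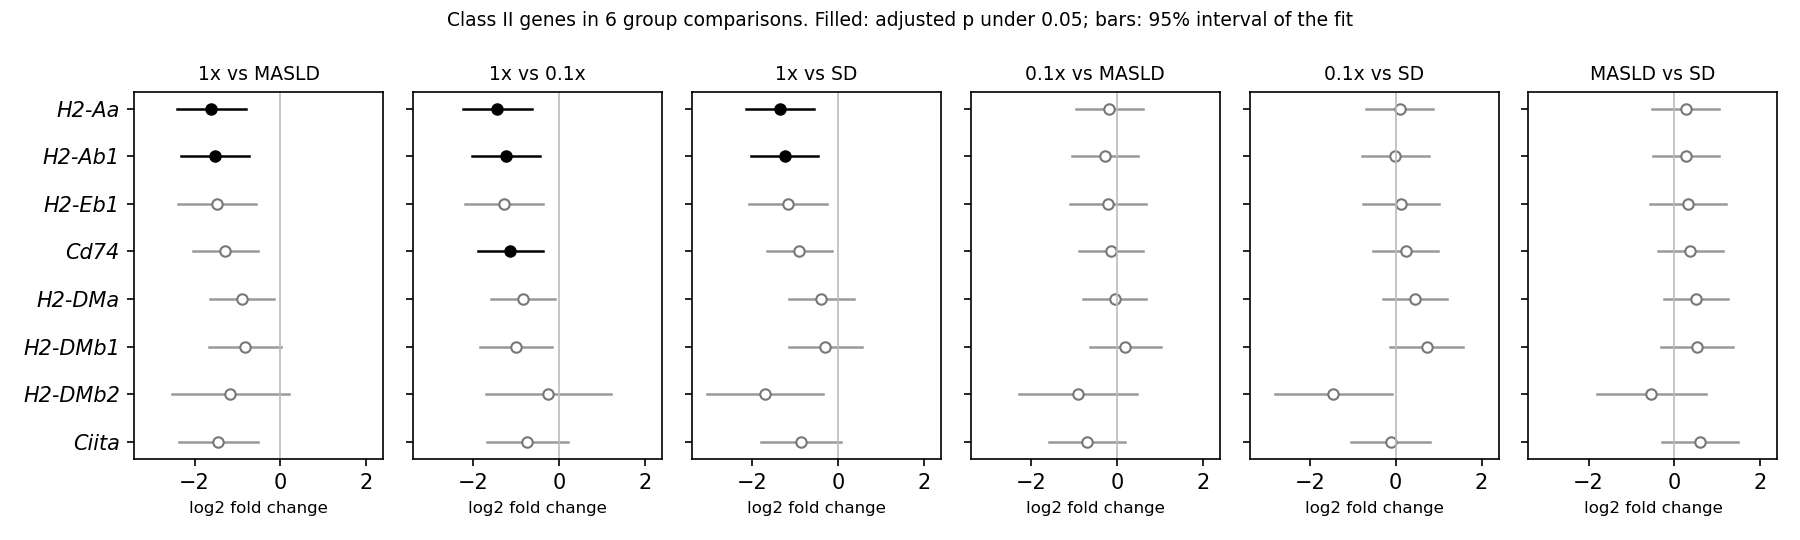
Log2 fold changes of the 8 class II genes in the 6 comparisons of groups (points) with 95% intervals of the edgeR fit (lines), filled where the adjusted p was under 0.05. All 8 points lie below 0 in the 3 comparisons of 1x with another group, and no point is filled in the comparisons without 1x.

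The 1x livers were also lower than the 0.1x livers. All 8 genes had negative log2 fold changes, with a median of −1.08 (all genes tested: −0.01), and 3 of 8 fell, set beside 5.86% of genes that fell and 13.0% that changed in either direction. H2-Aa had 11.7, 10.8 and 21.9 CPM in 1x, against 49.4, 26.4 and 44.7 CPM in 0.1x, a log2 fold change of −1.44 ± 0.37 (adjusted p = 0.0243, edgeR). H2-Ab1 had 11.3, 11.5 and 19.4 CPM in 1x, against 38.7, 21.9 and 38.9 CPM in 0.1x, a log2 fold change of −1.24 ± 0.37 (adjusted p = 0.0399, edgeR). Both were without overlap, and the lowest sample in 0.1x was sample 3. Cd74 had 33.0, 26.0 and 50.4 CPM in 1x, against 110, 45.3 and 85.9 CPM in 0.1x, a log2 fold change of −1.14 ± 0.36 (adjusted p = 0.0479, edgeR). For Cd74 the groups overlapped, since 0.1x sample 3 was below 1x sample 5.

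In that comparison no class II gene passed when 1 of 4 samples was left out: 0.1x sample 1 (H2-Aa adjusted p = 0.0708), 0.1x sample 4 (0.0543), 1x sample 2 (0.120) or 1x sample 4 (0.0632, edgeR). Without 0.1x sample 3, 5 of 8 fell, and no omission of a sample gave more than 1844 genes called in all. Removing the part of each library that followed GC content and length of the transcripts, which was largest in 0.1x sample 3, left H2-Aa past the threshold at −1.42 (adjusted p = 0.0395, edgeR). It ended the calls of H2-Ab1 (−1.02, adjusted p = 0.0866) and Cd74 (−1.02, adjusted p = 0.0843, edgeR). H2-Eb1 differed by −1.28 ± 0.43 (adjusted p = 0.0601), H2-DMb1 by −1.01 ± 0.39 (adjusted p = 0.0979) and H2-DMa by −0.84 ± 0.35 (adjusted p = 0.121, edgeR). Ciita and H2-DMb2 were at −0.75 ± 0.44 and −0.25 ± 0.68.

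At 0.1x no class II gene changed against MASLD, where 13.2% of all genes tested did. H2-Aa had 49.4, 26.4 and 44.7 CPM in 0.1x, against 48.1, 61.8 and 25.8 CPM in MASLD, so that each group held a low sample. Its log2 fold change was −0.17, with a 95% interval of −0.95 to 0.60. Of the 8 fold changes 7 were negative, with a median of −0.18 (all genes tested: −0.02). Ciita had the lowest adjusted p, 0.271 (edgeR), with 0.682, 0.585 and 0.753 CPM in 0.1x, against 1.42, 1.21 and 0.662 CPM in MASLD. H2-DMb2 was the 1 gene of the 8 whose groups did not overlap, at 0.295 to 0.465 CPM in 0.1x and 0.503 to 1.10 CPM in MASLD (log2 fold change −0.91 ± 0.64, adjusted p = 0.355, edgeR). All 8 intervals of the log2 fold change included 0, from the narrowest, −0.78 to 0.68 for H2-DMa, to the widest, −2.29 to 0.46 for H2-DMb2.

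The diet alone gave no call among the 8 genes either, in a comparison where 29.5% of all genes tested changed. Cd74 had 99.5, 111 and 54.8 CPM in MASLD, against 80.0, 38.8 and 86.2 CPM in SD, with a log2 fold change of 0.37 ± 0.35 (adjusted p = 0.451, edgeR). H2-Aa had 48.1, 61.8 and 25.8 CPM in MASLD, against 39.4, 20.3 and 53.1 CPM in SD, a log2 fold change of 0.26 with a 95% interval of −0.51 to 1.04. The groups overlapped in part for each, with MASLD 5 low in its group and SD 4 below every MASLD sample. Of the 8 fold changes 7 were positive, with a median of 0.35 (all genes tested: 0.03), and those of H2-Aa, H2-Ab1 and H2-Eb1 turned to between −0.0372 and −0.0081 without MASLD 4 or without SD 4. H2-DMb2 alone was lower, at 0.528, 1.10 and 0.503 CPM in MASLD against 0.648, 0.412 and 2.04 CPM in SD (log2 fold change −0.54 ± 0.59). Its highest value was in SD 5, the sample rich in B cell RNA, and without that sample the log2 fold change was 0.43. All 8 fold changes were positive without SD 5, up to 0.93 for H2-DMa (adjusted p = 0.0849, edgeR), and none of the 8 passed. H2-Aa was then at 0.60 and Cd74 at 0.57.

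Set against the standard diet, 1x livers had 2 class II genes that fell, beside 9.84% of all genes tested that fell and 19.8% that changed. H2-Aa had 11.7, 10.8 and 21.9 CPM in 1x, against 39.4, 20.3 and 53.1 CPM in SD (log2 fold change −1.35 ± 0.37, adjusted p = 0.0201, edgeR). H2-Ab1 had 11.3, 11.5 and 19.4 CPM in 1x, against 33.0, 18.01 and 48.8 CPM in SD (log2 fold change −1.25 ± 0.37, adjusted p = 0.0279, edgeR). The groups overlapped for all 8 genes: SD 4 lay below 1x sample 5 for each of them, and SD 3 did so for H2-DMa. Without SD 5, H2-Aa was at −1.01 (adjusted p = 0.106) and H2-Ab1 at −0.86 (adjusted p = 0.153, edgeR), so that no class II gene passed. Neither passed without 1x sample 2 (adjusted p = 0.0896 and 0.112) or 1x sample 4 (0.0718 and 0.0863, edgeR). Without SD 4, 5 of 8 passed, beside 2227 genes called in all. Between 0.1x and SD, where 20.7% of all genes tested changed, none of the 8 passed, and the median log2 fold change was 0.11. The comparisons share samples and are not independent: 1x enters 3 of them.

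Within a group the class II genes varied together from sample to sample. With group means removed, the correlation of each gene with the mean of the other 7 over the 12 samples was 0.75 for H2-DMb2, 0.86 for Ciita and 0.89 to 0.99 for the other 6, all of which share the same libraries. Their summed level was 243, 290 and 129 CPM in MASLD, 248, 119 and 219 CPM in 0.1x, 69.7, 62.1 and 120 CPM in 1x, and 191, 95.3 and 242 CPM in SD. The 1x mean was 83.9 ± 31.5 CPM (SD, n = 3), beside 221 ± 82.8 CPM in MASLD, 195 ± 68.1 in 0.1x and 176 ± 74.5 in SD. Samples 2 and 4 of 1x were below every other sample, while 1x sample 5 was above SD 4 and close to 0.1x sample 3. Proportions varied little between the abundant chains and more among the H2-DM genes. The ratio of H2-Aa to H2-Ab1 counts ran from 0.946 to 1.28 over the 12 libraries, and that of Cd74 to H2-Ab1 from 1.77 to 2.92, while H2-Aa itself varied 5.70-fold. The ratio of H2-DMb2 to H2-DMb1, whose shared reads are uncertain, ran from 0.0566 to 0.598. Cd74 took 35.7 to 47.4% of the summed CPM. H2-Aa took 16.8 to 18.2% of it in 1x and 19.8 to 22.2% in the other 9 libraries. H2-DMa was 0.173 to 0.192 of H2-Ab1 counts in 1x and 0.0892 to 0.171 in the other 9 libraries. These proportions did not overlap, and the differences were not tested.

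The second set of class II chains, H2-Oa and H2-Ob, encodes H2-O, an inhibitor of H2-DM found mainly in B cells. H2-Ob had 0.0841, 0.0960 and 0.211 CPM in 1x, against 0.307, 0.190 and 1.40 CPM in SD, and fell by 2.29 ± 0.74 on the log2 scale (adjusted p = 0.0404, edgeR). That fall rested on SD 5, without which it was −0.93 (adjusted p = 0.443, edgeR). H2-Ob did not pass without 1x sample 2, 4 or 5 either (adjusted p = 0.149, 0.110 and 0.0547, edgeR). H2-Oa passed in no comparison, and against SD in 1x it was at −1.84 ± 0.72 (adjusted p = 0.0872, edgeR). H2-Eb2 was below the filter, with 0 to 20 counts per library, the 20 in SD 5.

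Of 14 tested genes for RFX, NF-Y, CREB and coactivator proteins, 1 rose and 0 fell at 1x against MASLD, with a median log2 fold change of 0.14 (all genes tested: −0.00), beside 1.49% of all genes that rose and 1.62% that fell. Rfx5, the subunit of RFX that touches the X box, had 6.71, 7.27 and 6.87 CPM in 1x, against 5.20, 4.90 and 7.10 CPM in MASLD, and did not pass (log2 fold change 0.28 ± 0.18, adjusted p = 0.483, edgeR). The gene that rose was Nlrc5, a relative of Ciita known as the transactivator of class I genes. It had 10.9, 6.67 and 6.61 CPM in 1x, against 3.53, 4.39 and 4.58 CPM in MASLD, without overlap (log2 fold change 0.95 ± 0.22, adjusted p = 0.0297, edgeR). Without 1x sample 2 it was at 0.67 (adjusted p = 0.136), without MASLD 3 at 0.85 (0.152) and without MASLD 4 at 1.00 (0.124, edgeR). Ep300, a histone acetyltransferase, rose in 1x against 0.1x by 0.81 ± 0.18 (adjusted p = 0.0136) and fell in 0.1x against MASLD by 0.57 ± 0.18 (adjusted p = 0.0486, edgeR). The rise was lost without 1x sample 2 (adjusted p = 0.0765), and the fall without any of the 6 samples but 0.1x sample 4 (adjusted p 0.0544 to 0.135, edgeR).

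Of 11 tested genes on the path from interferon gamma to Ciita, none passed at 1x against MASLD, where 3.11% of all genes tested changed. The median log2 fold change of the 11 was −0.18. Irf1 was 0.71 ± 0.15 lower on the log2 scale in MASLD than in SD (adjusted p = 0.00312) and rose by 0.66 ± 0.15 in 0.1x against MASLD (adjusted p = 0.0158, edgeR), a call lost without any one of the 3 MASLD samples (adjusted p 0.0520 to 0.0646, edgeR). At 1x against MASLD Irf1 was at 0.42 ± 0.15 (adjusted p = 0.156, edgeR). Ifng itself had 0 to 6 counts per library and was not tested.

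Between the class II genes on chromosome 17 lie genes of the class I pathway, and 3 of these rose at 1x against MASLD. Psmb9 (34181987 to 34187764), Tap1 (34187553 to 34197225) and Psmb8 (34197721 to 34201454) sit between H2-DMb1 and H2-Ab1. They encode immunoproteasome subunits and a peptide transporter chain. Psmb8 had 40.5, 39.1 and 43.9 CPM in 1x, against 23.1, 21.9 and 20.6 CPM in MASLD (log2 fold change 0.91 ± 0.11; 95% interval 0.67 to 1.15; adjusted p = 0.000727, edgeR). This interval and that of H2-Ab1 lie on opposite sides of 0. Psmb9 rose by 0.92 ± 0.14 (adjusted p = 0.00394) and Tap1 by 0.73 ± 0.15 (adjusted p = 0.0205, edgeR), with 20.5 to 22.2 CPM of Psmb9 in 1x and 10.1 to 11.95 CPM in MASLD. Tap1 did not pass without MASLD 3 or 4 or any one of the 3 samples of 1x (adjusted p 0.0537 to 0.113, edgeR), while Psmb8 and Psmb9 passed without each sample in turn. Of the 12 neighbours tested in this region these 3 rose and 0 fell, beside 1.49% of all genes tested that rose. Tap2 and Brd2 were at 0.35 ± 0.18 and 0.21 ± 0.16, and neither passed (adjusted p = 0.334 and 0.557, edgeR). At 0.1x against MASLD 2 of the 12 rose and 0 fell, beside 13.2% of all genes tested that changed. They were Psmb8, by 0.48 ± 0.11 (adjusted p = 0.0174), and Psmb9, by 0.47 ± 0.14 (adjusted p = 0.0429, edgeR). Psmb8 passed in 10 and Psmb9 in 7 of 14 alternatives. With the diet alone 1 of the 12 fell and 0 rose, Psmb8 by 0.62 ± 0.11 (adjusted p = 0.000892, edgeR).

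**Figure D3:**
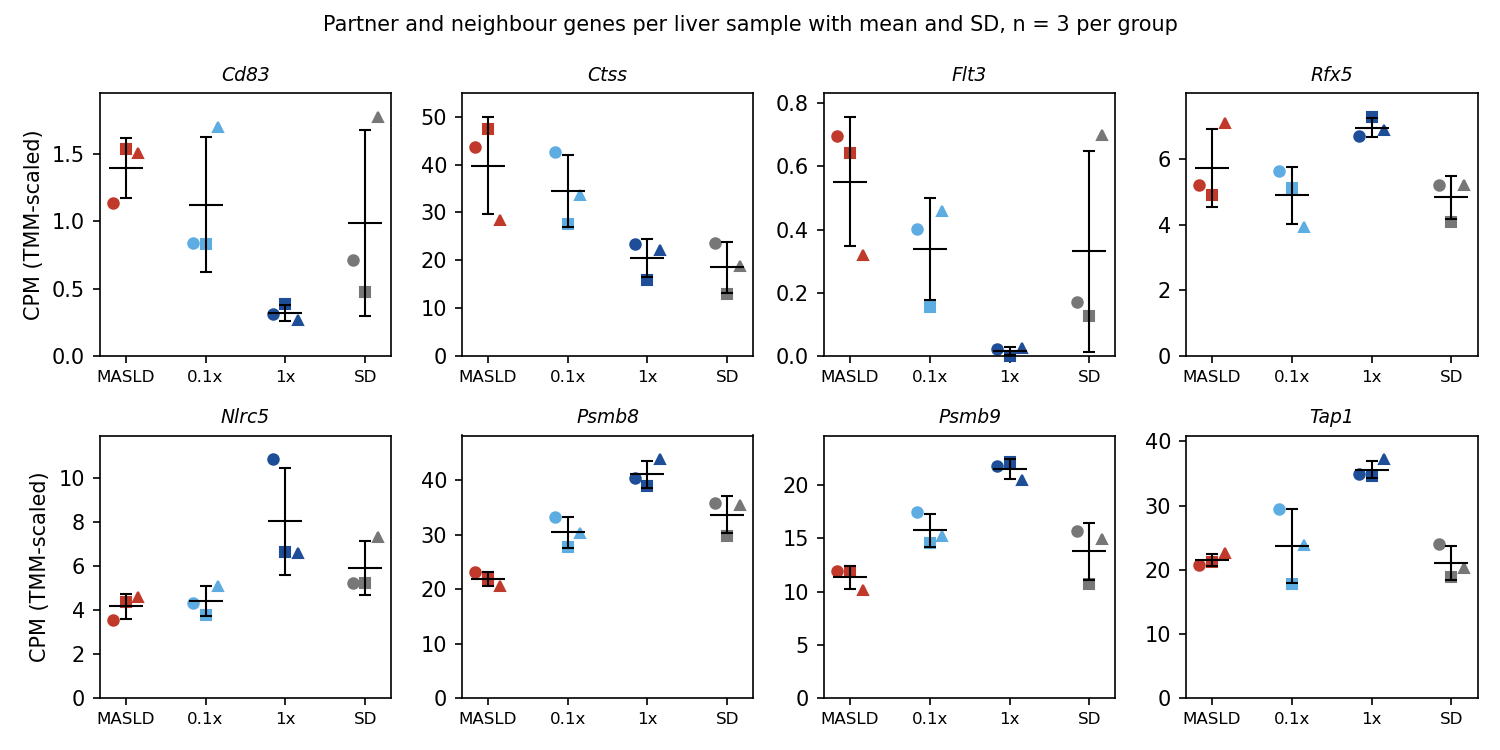
TMM-scaled CPM per liver sample (points) with mean and SD (n = 3) for 8 genes around the class II pathway, in MASLD, 0.1x, 1x and SD. Cd83, Ctss and Flt3 were low in 1x against MASLD, while Nlrc5, Psmb8, Psmb9 and Tap1 were high.

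Among 14 genes of invariant chain trimming and antigen processing, 1 fell and 0 rose at 1x against MASLD. Over all genes tested, 1.62% fell and 1.49% rose. The gene that fell was Ctss, cathepsin S, the main protease for the invariant chain in dendritic cells and B cells. Ctss had 23.5, 15.9 and 22.1 CPM in 1x, against 43.6, 47.4 and 28.4 CPM in MASLD, without overlap (log2 fold change −0.96 ± 0.23, adjusted p = 0.0389, edgeR). Unlike the class II genes, Ctss also rose with the diet, with 43.6, 47.4 and 28.4 CPM in MASLD against 23.6, 13.0 and 18.9 CPM in SD (1.11 ± 0.24, adjusted p = 0.00292, edgeR), a difference between genes that was not tested. The fall at 1x was lost on leaving out MASLD 3 or 4 or any one of the 3 samples of 1x (adjusted p 0.0776 to 0.210, edgeR). Ctss was also lower in 1x than in 0.1x (−0.75 ± 0.23, adjusted p = 0.0467, edgeR), a call that held in 7 of 14 alternatives. In MASLD against SD 4 of the 14 genes rose and 3 fell, beside 29.5% of all genes tested that changed. Ctse rose most, by 4.22 ± 0.39 on the log2 scale (adjusted p = 2.86e-06, edgeR), and Ctsl, another cathepsin, fell by 0.83 (adjusted p = 5.32e-05, edgeR).

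Among 12 genes of class II turnover and traffic, 1 fell and 0 rose at 1x against MASLD, where 1.62% of all genes tested fell and 1.49% rose. The gene that fell was Cd83, a dendritic and B cell surface protein that shields class II molecules from the ubiquitin ligase March1. Cd83 had 0.315, 0.384 and 0.264 CPM in 1x, against 1.14, 1.54 and 1.51 CPM in MASLD, without overlap, at 10 to 16 counts per library in 1x (log2 fold change −2.11 ± 0.47, adjusted p = 0.0274, edgeR). It was also lower in 1x than in 0.1x (−1.79 ± 0.48, adjusted p = 0.0272, edgeR), a call lost without 0.1x sample 4 or 1x sample 2 or 5 (adjusted p 0.0850 to 0.110, edgeR). Against MASLD it did not pass when any one of the 6 samples was left out (adjusted p 0.0565 to 0.124, log2 fold change −2.24 to −1.99, edgeR). Among 7 ligands and costimulators 1 rose, Fgl1, a hepatocyte protein known as a ligand of Lag3, by 1.55 ± 0.26 (adjusted p = 0.00671, edgeR), or 1.48 without MASLD 4 (adjusted p = 0.0509, edgeR).

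Markers of cell types in liver were set beside the class II genes, and few passed the test at 1x against MASLD. In that comparison 1.62% of all genes tested fell and 1.49% rose. Of 9 tested markers of conventional dendritic cells, 8 had negative fold changes at 1x against MASLD, with a median of −1.44, and 1 passed. The 1 positive marker had a log2 fold change of 0.39 and did not pass. The summed level of the 11 listed markers was 5.11 to 6.63 CPM in 1x and 7.10 to 14.3 CPM in MASLD. The marker that passed was Flt3, the growth factor receptor on which dendritic cells depend, with 1, 0 and 1 counts in 1x, against 25, 25 and 12 counts in MASLD (adjusted p = 0.0123, edgeR). The ratio of its pooled depth-scaled counts was 0.0286 (95% counting interval 0.00339 to 0.108). Flt3 did not pass without MASLD 3 or 4 or without 1x sample 2 or 4 (adjusted p 0.0549 to 0.0591, edgeR). The dendritic cell markers Xcr1 and Clec9a were below the filter, with 0 to 10 and 2 to 17 counts per library, and Itgax was at −2.14 ± 0.57 (adjusted p = 0.0553, edgeR). Flt3 also fell in 1x against 0.1x (−4.15 ± 0.97, adjusted p = 0.0166) and against SD (−4.15 ± 0.97, adjusted p = 0.00766, edgeR). Its pooled counts were 2 in 1x, 32 in 0.1x and 33 in SD. Each of these 2 calls held in 10 of 12 alternatives, beside 8 of 13 for 1x against MASLD.

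Kupffer cells, the resident macrophages of liver, are another source. Of their 12 markers 11 had negative fold changes at 1x against MASLD (median −0.75), 2 fell and 1 rose. Csf1r had 22.6, 12.6 and 18.3 CPM in 1x, against 51.3, 41.0 and 35.4 CPM in MASLD (−1.25 ± 0.30, adjusted p = 0.0372, edgeR), and Vsig4 fell by 1.08 ± 0.27 (adjusted p = 0.0411, edgeR). Marco, a scavenger receptor, rose by 1.77 ± 0.45 (adjusted p = 0.0488, edgeR). The summed Kupffer markers were 187 to 368 CPM in 1x and 354 to 513 CPM in MASLD, an overlap. In 0.1x they were 385 to 483 CPM, above every 1x sample. At 1x against 0.1x 6 of the 12 fell and 0 rose (median −0.70), beside 5.86% of all genes tested that fell. Vsig4 had the lowest adjusted p of these, 0.00893 (−1.37 ± 0.27, edgeR), and passed in 13 of 14 alternatives. In MASLD against SD 8 of the 12 rose, beside 29.5% of all genes that changed in either direction, and the difference from the class II genes was not tested. Ccr2, a receptor of recruited monocytes, was the 1 of 7 markers of that class to fall at 1x against MASLD, with 0.315, 0.312 and 0.370 CPM in 1x, against 1.81, 2.69 and 0.768 CPM in MASLD (−2.39 ± 0.48, adjusted p = 0.0163, edgeR).

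Of 10 tested B cell markers none passed at 1x against MASLD, and 9 were negative (median −0.58). The sum of the 14 listed B cell markers without Ighm, untested ones included, was 3.65 to 5.23 CPM in 1x, 3.63 to 7.001 CPM in MASLD and 16.3 CPM in SD 5. Of 10 tested T and NK cell markers none passed at 1x against MASLD, with 5 positive and 5 negative. Markers of other macrophages, bile duct cells and stellate cells also had mostly negative fold changes at 1x against MASLD. Of 8 markers of lipid-associated macrophages 7 were negative (median −1.09) and 2 fell, Mmp12 by 2.65 ± 0.50 (adjusted p = 0.0120) and Spp1 by 1.79 ± 0.40 (adjusted p = 0.0264, edgeR). Neither passed without MASLD 4 or without 1x sample 2 or 4, nor Spp1 without 1x sample 5 (adjusted p 0.0503 to 0.121, edgeR), and Spp1 was at −0.89 without MASLD 4. All 5 tested cholangiocyte markers were negative (median −1.21), of which Spp1, also on that list, fell. All 6 stellate cell markers were negative (median −0.51), and 1, Reln, fell by 0.71 ± 0.13 (adjusted p = 0.00886, or 0.0680 without MASLD 4, edgeR). Of 7 sinusoidal endothelial markers 4 were positive and 3 negative (median 0.10), and none passed. Of 6 hepatocyte markers 4 were positive and 2 negative (median 0.28), and 1 rose. Of 5 tested plasma cell markers 2 were positive and 3 negative (median −0.50), and 1 fell. Of 2 tested plasmacytoid dendritic cell markers 1 was positive and 1 negative, and none passed. The part of any of these cell types in the class II differences was not tested. At 1x against MASLD Csf1r, Vsig4, Marco and Ccr2 each lost the call without MASLD 3 or without MASLD 4 (adjusted p 0.0550 to 0.228, edgeR). Csf1r, Vsig4 and Ccr2 also lost it without 1x sample 4, Csf1r, Marco and Ccr2 without 1x sample 2, Csf1r, Vsig4 and Marco without 1x sample 5, and Marco without MASLD 5 (adjusted p 0.0629 to 0.219, edgeR).

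**Figure D4:**
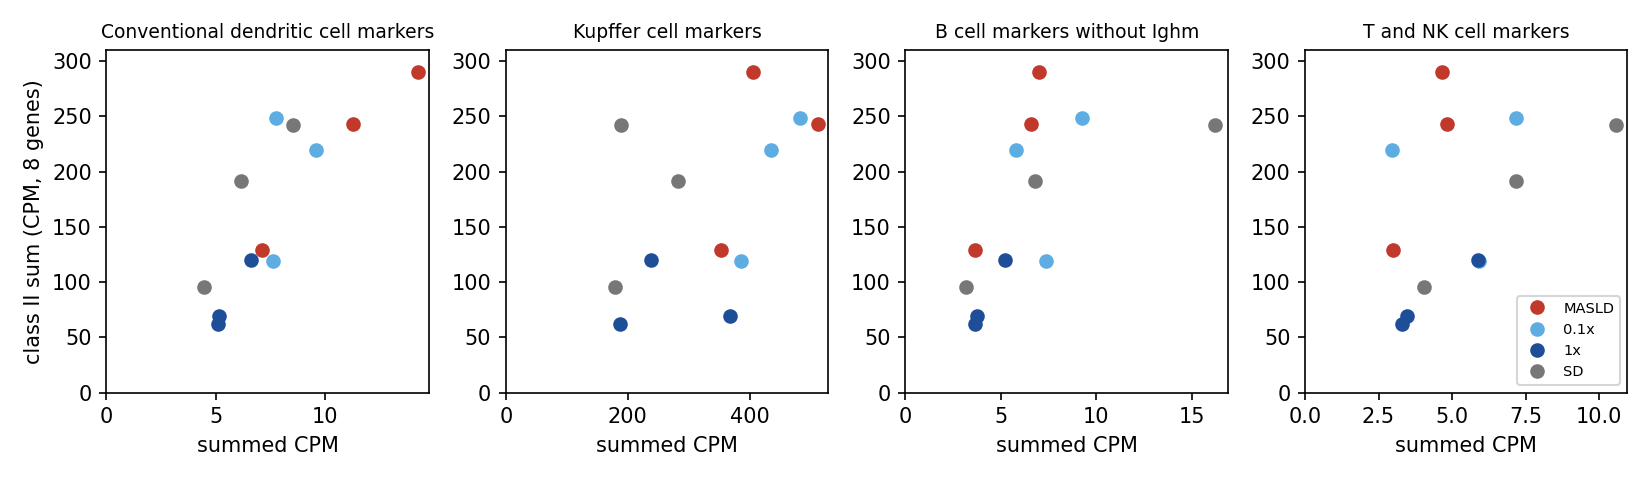
Summed CPM of the 8 class II genes (vertical axis) against the summed CPM of markers of 4 cell types (horizontal axes) in the 12 liver samples, coloured by group. The samples 2 and 4 of 1x lie lowest on the vertical axis, at 69.7 and 62.1 CPM, and SD 5 stands out to the right among the B cell markers.

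Outside the set, the genes whose log2 CPM over the 12 samples was most like the mean standardised level of the 8 class II genes were sought among 12279 tested genes. Lsp1, a leukocyte actin-binding protein, came first (Pearson r = 0.954, Spearman rho = 0.930), followed by Ppfia4 (r = 0.921), Clec4b1 (0.918), Coro1a (0.912), Chka (0.905), Flt3 (0.903), Bcl2a1d (0.894), Chadl (0.892), Cotl1 (0.883) and Fmnl1 (0.877). These values describe the 12 samples and were picked as the highest of many. Since the class II level was on average lowest in 1x, the choice favoured genes that are low in 1x. Clec4b1 and Bcl2a1d had only 7 and 5 pooled counts in 1x. Chka, the choline kinase, fell at 1x against MASLD by 0.78 ± 0.17 (adjusted p = 0.0244, edgeR; not recomputed without single samples), while Lsp1 was at −1.41 ± 0.43 (adjusted p = 0.0895, edgeR). After group means were removed, which leaves the differences between samples of a group, the most alike were Lgals3 (r = 0.961), Cotl1 (0.955), Ifitm1 (0.949), Ms4a6b (0.943), Lsp1 (0.938), Clec4b1 (0.937), Procr (0.936), Plekha4 (0.932), Sh3bgrl3 (0.928) and Grik5 (0.927). Lsp1, Clec4b1 and Cotl1 stood in both lists.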

How the data were processed

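Whole liver RNA was measured by RNA-seq in 12 samples, 3 per group, grouped by the diet and treatment in the labels. Stranded libraries of polyadenylated RNA were read in pairs, per the labels' protocols, which name another HiSeq instrument than the series' design text. Reads were aligned with STAR 2.7.3a to mm10, per the submitters' processing notes. Which counter, strand setting and annotation were used is not stated in these sources. The authors deposited 1 table of raw counts per gene (55471 IDs), and 0 of its columns lay outside the samples. The column of 1x sample 5 carries the number 8 of its library name. GENCODE symbols matched 55230 IDs, and the 241 unmatched IDs held 0.00328% of counts.

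From those counts, edgeR 4.0.16 in R 4.3.3 gave CPM, fold changes and p-values: filterByExpr by group, TMM scaling, 1 quasi-likelihood fit of all 12 samples with a coefficient per group, and two-sided tests of contrasts. The adjusted p is Benjamini-Hochberg over the 13866 genes tested, with a threshold of 0.05. The SE is the log2 fold change over the square root of F, and intervals on the log2 scale use the fit's t quantile. Log2 CPM used a prior count of 2. The counting interval of a ratio of pooled counts is exact binomial and covers counting error only. On simulated counts with 200 changed genes, the fit for 1x against MASLD recovered 60.9% of genes changed 2-fold, 83.3% of those changed 3-fold and 31.7% of those changed 1.5-fold, among 13636 genes. The changed genes were drawn at random, each with its own spread (46, 54 and 41 genes in that order). These rates are averages over such genes, and recovery of the class II genes was not simulated.

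No 2 samples of a group agreed within sampling noise (chi-square over its degrees of freedom at least 15.3). Whether the samples are separate mice is not labelled, and p-values therefore reflect only sample-to-sample spread, which may be technical. The members and the other gene lists were chosen with earlier results of these data known. All 8 members are named, and from each other list those passing, at most 3 per direction by adjusted p, as far as they bear on the class II genes. H2-Oa, H2-Ob, H2-Eb2, Rfx5, Irf1 and Ctss are named whatever their result (1 further gene of that rule is not reported here), as are the 10 genes most alike in profile. Itgax, Xcr1, Clec9a, Tap2, Brd2, Ifng and H2-Ea-ps were added after their values were seen. Promoters came from the RefSeq table for GRCm38.p6. Alternatives were other scalings, DESeq2 1.42.0, other filters, fits of the 2 groups alone, a replicate block, removal of a GC and length trend, summed H2-DMb counts and leaving out each sample.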

Additional observations from a re-analysis of the deposited data

How the results depend on the processing

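The log2 fold changes of H2-Aa, H2-Ab1 and Cd74 at 1x stayed negative under every alternative run, but the calls did not hold throughout. With 3 samples per group and 30213048 to 41852606 counts each, the SE of a log2 fold change was largest for H2-DMb2 (6 to 70 counts), at 0.59 to 0.68 over the 6 comparisons. Of the class II fold changes recomputed under the alternatives, 564 kept their direction and side of the threshold, 35 lost the call, 31 gained it and 36 changed sign, none of which was called in the main analysis. The cause of these changes was not tested except where stated.

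For 1x against MASLD, DESeq2 called 825 genes, no filter 1131 and the fit of the 2 groups alone 1013, against 431 in the main analysis. Class II genes called were 7 without a filter and 5 with the 2 groups alone, against 2. Without a filter the class II count was 6 for 1x against 0.1x, 5 for 1x against SD and 2 for 0.1x against SD. In the same order, no alternative other than leaving out a sample called more than 2487, 3202 and 3287 genes in all. Without a filter 22984 genes were tested. The filter acts through the prior degrees of freedom of the fit, which were 876 without it and 6.79 with it, so the small p-values without it overstate precision. The fit of the 2 groups alone called 744 genes for 1x against 0.1x and 1660 for 0.1x against SD. Removing the GC and length trend gave 645 genes for 0.1x against MASLD and 965 for 1x against 0.1x, with 1 class II gene in the second.

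The replicate numbers did not pair the samples: correlations of deviations between samples of the same number ran from −0.215 to 0.0757. With the replicate block 33 genes were called for 0.1x against MASLD, 53 for 1x against MASLD, 0 for 1x against 0.1x, 1379 for 0.1x against SD and 1122 for 1x against SD, and class II calls at 1x were 0 in each comparison.

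Leaving out each sample gave 2654 to 3850 genes called for MASLD against SD, 382 to 1599 for 0.1x against MASLD, 83 to 396 for 1x against MASLD, 210 to 1844 for 1x against 0.1x, 1790 to 2619 for 0.1x against SD and 1699 to 2559 for 1x against SD. Class II calls ran from 0 to 4 for 1x against MASLD and 0 to 5 for 1x against 0.1x and against SD.

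Sign changes on leaving out a sample are given as the range of log2 fold changes. For MASLD against SD they were −0.0372 to 0.60 (H2-Aa), −0.0319 to 0.65 (H2-Ab1), −0.0146 to 0.68 (H2-Eb1), −1.01 to 0.43 (H2-DMb2), −1.34 to 0.40 (H2-Oa) and −1.56 to 0.23 (H2-Ob). For 0.1x against MASLD they were −0.45 to 0.13 (H2-Aa), −0.57 to 0.0093 (H2-Ab1), −0.49 to 0.14 (H2-Eb1), −0.43 to 0.15 (Cd74), −0.31 to 0.24 (H2-DMa) and −0.0677 to 0.45 (H2-DMb1). For 0.1x against SD they were −0.21 to 0.43 (H2-Aa), −0.30 to 0.38 (H2-Ab1), −0.20 to 0.48 (H2-Eb1), −0.0615 to 0.52 (Cd74), −0.31 to 0.22 (Ciita), −0.81 to 1.04 (H2-Ob), −0.10 to 0.15 (Rfx5) and −0.20 to 0.0848 (Irf1). For 1x they were −1.15 to 0.10 (H2-DMb2) and −0.90 to 0.0407 (H2-Oa) against 0.1x, and −0.68 to 0.0420 (H2-DMa) and −0.0509 to 0.36 (Ctss) against SD.

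Other sign changes were near 0. For 0.1x against SD, H2-Ab1 was at 0.0296 with upper-quartile factors, 0.0171 with a mean of at least 1 CPM and 0.0041 with the 2 groups alone, and Ciita at 0.0242 without the GC and length trend. With the replicate block Ciita, H2-Ob, Rfx5 and Irf1 were at 0.0137, 0.0036, −0.0329 and 0.0456 in that comparison. Without the GC and length trend H2-DMb1 was at −0.0286 for 0.1x against MASLD.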
